A study of Mus musculus with 24 samples.

Results

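The livers of adult mice sampled 24 h after gamma irradiation were compared with the livers of adult mice labelled 0 h. The comparison takes every array whose title names 7-week-old mice at these times: 4 arrays at 24 h and 4 at 0 h, 8 of the 24 arrays of the series, each with 2 males and 2 females. The mice were B6C3F1, a first-generation hybrid strain, and the dose on the labels was 4 Gy of gamma rays. The 0 h mice are described as sampled at 0 hours after that same dose, while the treatment protocol also mentions sham-irradiated mice without saying which samples they gave. The hour of day of sampling is not given in the sources used here. Each array holds total RNA of liver tissue, so a change in the number of cells of a type and a change in the RNA per cell cannot be told apart. The arrays are called male 1, male 2, female 1 and female 2 after their labels. These do not say whether an array holds 1 mouse or a pool, so p-values measure the spread between samples, here those of the whole series.

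Ionising radiation breaks DNA, and the transcription factor p53 then raises genes that halt the cell cycle, start apoptosis or repair the damage. Interferons are secreted alarm signals that switch on a large set of antiviral genes, the interferon-stimulated genes, through the STAT and IRF families of factors. Hepatocytes, the main cells of the adult liver, rarely divide, and many of their genes follow a daily rhythm driven by the circadian clock.

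Levels are given as log2 signal with each array's 75th percentile set to 0, so a difference of 1 is a 2-fold change. A gene was called when its adjusted p in limma was under 0.05 over the 23111 genes tested, and a call in both sexes needed this in females and in males separately, in the same direction. The 75th percentile of the raw signal lay between 149 and 336 on the 8 arrays, and 47.6% to 52% of the probes were well above background on 6 of them. The 24 h male arrays were dimmer, with 41.5% and 41.7%. Those 2 arrays were also hybridised on another slide than the other 6, so for males the slide and the 24 h time cannot be told apart, whereas the female comparison lies within 1 slide. The hepatocyte markers Alb, Apoa1, Ttr, Tat, Cps1, Asgr1, F2 and Cyp2e1 were well above background on all 8 arrays, with a mean level between 8.2 and 8.68.

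The livers showed 3 groups of genes that moved in both sexes at 24 h: p53 targets and interferon-stimulated genes were higher, and genes of mitosis were lower. The number of calls in males depended on single arrays, and the male falls of mitosis genes were fragile, as given below. On the average of the sexes 1968 genes were higher (8.52% of those tested) and 1345 were lower (5.82%). Females had 1534 genes higher (6.64%) and 1827 lower (7.91%), and males had 2084 higher (9.02%) and 1326 lower (5.74%). Far fewer genes were called in both sexes, 370 higher (1.6%) and 130 lower (0.563%). Another 193 genes were lower in females and higher in males, and 102 were the reverse. The change itself differed between the sexes for 3200 genes, with the male change above the female change in 1964 (8.5%) and below it in 1236 (5.35%). All 24 h arrays lay above all 0 h arrays in 1292 genes and below them in 711. Lack of overlap within each sex was a condition for naming the genes that rose or fell most, so it adds no support there. These shares and counts are the background for every count below. All of the calls draw on the spread across the 24 arrays of the series: with the 8 arrays of this comparison alone, limma called 1 gene on the average and 0 in both sexes, although 5448 and 959 genes respectively had an unadjusted p under 0.05.

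The split between higher and lower calls moved with the scaling of the arrays. In females 45.6% of the calls were rises, against 19.3% when each array was scaled to its median. In males 61.1% were rises. Quantile normalization turned that share to 41.8%, and median scaling to 75.8%. On the average of the sexes it was 59.4% and became 43.4% with quantile normalization, and in both sexes it was 74% and became 54.6%. The share of sex differences with the larger change in males went from 61.4% to 88.2% with median scaling. Under median scaling the median change was -0.21 in females and 0.33 in males, against 0.02 and 0.06 on the main scale. Changes of that size are therefore read only relative to the scaling. Of the 607 genes called at least 2-fold lower in males, 34.4% were well above background on both male arrays at both times, and 234 were so only at 0 h. The corresponding share of the 333 genes lower in females was 63.4%.

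**Figure D1:**
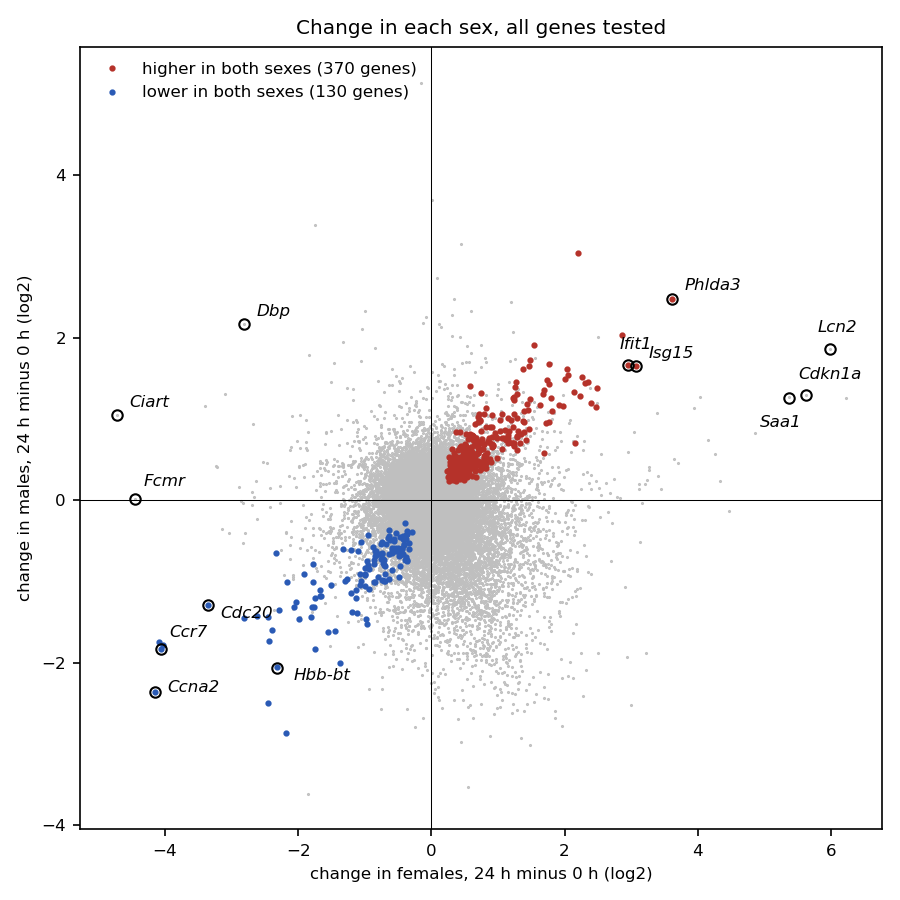
Change from 0 h to 24 h in females (x axis, log2) against the change in males (y axis, log2) for the 23111 genes tested; each point is a gene, red points are the 370 higher and blue points the 130 lower in both sexes, grey points are all others. Phlda3 and Isg15 lie high in both sexes, Ccna2 and Hbb-bt low in both, and Dbp lies low in females and high in males.

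The 0 h arrays were not alike, and this touches every result that follows. The male pair differed from the female pair at 0 h in 5189 genes (22.5% of those tested), and at 24 h in 3862 (16.7%). Within the 0 h pairs, 7.03% of genes differed by at least 2-fold between male 1 and male 2, and 5.58% between female 1 and female 2. The first male array at 0 h stood apart from the other 3 in stress genes. Lcn2, a secreted iron-binding protein of the acute-phase response, was at 8.84 there and at 2.72, 2.48 and 3.18 on male 2, female 1 and female 2. Isg15 was at 5.53 against 3.99, 3.75 and 3.71, and Cep55, a protein of the last step of cell division, at 1.43 against -3.02, -3.43 and -3.93. The 37 interferon-induced effectors averaged 1.78 on that array and 0.97, 1.22 and 1.1 on the others, and granulocyte markers averaged -0.82 against -1.99, -1.97 and -2.07. Leaving out this array, or in its place male 2 at 0 h, each moved 12 of the called male changes of the named genes by over 1.5 times, and those values are given beside the genes that the results turn on.

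Clock genes separated the 0 h females from the other arrays. The core clock consists of activators (Arntl, also called Bmal1, and Clock) that bind E-box sequences and switch on their own repressors (the Per and Cry genes, Ciart, Nr1d1 and Nr1d2), together with output factors such as Dbp and Tef that bind D-box sequences. The list of repressors and D-box factors had 11 members tested, which comprised 7 that fell and none that rose in females and 4 that rose and none that fell in males. The male and the female change differed in 7 of the 11, and no member was called in the same direction in both sexes. The median change of these genes was -1.04 in females and 0.55 in males, beside 0.02 and 0.06 over all genes. Cry1 was not in this list but in that of activators and related genes, which had 6 members tested. Of those, 2 rose in females and 2 in males, beside backgrounds of 6.64% and 9.02%, and none fell. The 2 in females were Arntl and Nfil3, so Cry1 was not called there.

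Sequences before the transcription start of 2 clock genes and of 7 interferon-stimulated or p53 genes are shown because those groups carry the results. They come from RefSeq (build GRCm38.p6), read 5′ to 3′ on the gene's strand, with the matched motif in capitals, and they include only bases upstream of the start. Ciart, a repressor of the clock, holds the E-box CACGTG at chr3:95882255-95882356 (minus strand), 3 times, and Per3, a period protein, holds the D-box TTATGNAA or TTACGNAA at chr4:151044804-151044882 (minus strand), 2 times.
Ciart: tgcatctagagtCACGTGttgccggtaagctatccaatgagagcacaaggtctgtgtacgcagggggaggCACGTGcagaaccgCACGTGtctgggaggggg
Per3: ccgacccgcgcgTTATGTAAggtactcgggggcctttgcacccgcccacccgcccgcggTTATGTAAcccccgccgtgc

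The interferon-stimulated response element, the binding sequence of the interferon-activated factors, was searched by its core GAAANNGAA on both strands, where overlapping matches form 1 longer run. It is present in the windows of Isg15 (chr4:156200864-156200908, minus strand), Ifit1 (chr19:34640768-34640825, plus strand, read here on its reverse strand as TTCNNTTTC), Irgm1 (chr11:48871424-48871462, minus strand) and Igtp (chr11:58199510-58199542, plus strand).
Isg15: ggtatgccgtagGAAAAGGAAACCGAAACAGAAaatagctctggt
Ifit1: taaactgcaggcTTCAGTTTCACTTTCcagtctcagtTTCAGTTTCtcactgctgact
Irgm1: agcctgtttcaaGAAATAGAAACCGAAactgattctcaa
Igtp: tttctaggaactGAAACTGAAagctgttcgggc

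The p53 half-site, one arm of the paired element that p53 binds, is present in the windows of Ccng1 (chr11:40755450-40755483, minus strand), Bax (chr7:45467078-45467111, minus strand) and Mdm2 (chr10:117710923-117710956, minus strand).
Ccng1: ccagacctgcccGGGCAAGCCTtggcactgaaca
Bax: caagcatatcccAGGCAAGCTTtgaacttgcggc
Mdm2: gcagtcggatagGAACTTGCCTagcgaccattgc

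Over the 250 bases upstream of the start, 7.13% of all 32851 promoters held the interferon core, 6.02% the E-box, 3.58% the D-box and 7.13% the p53 half-site. A promoter was listed for 11867 of the genes tested, and 7.72% of these held the interferon core, against 41 of the 212 listed genes that were higher in both sexes (19.3%) and 3 of the 48 that were lower (6.25%). All 9 listed members of the GBP and IRG families, 13 of the 29 listed interferon-induced effectors and 1 of the 4 listed members of the ISG15 system held it. Of the listed genes tested, 9.16% held the E-box, 3.71% the D-box and 7.53% the p53 half-site. The p53 half-site was in 12.3% of the listed genes higher and 10.4% of those lower in both sexes. The p53 half-site was in 7 of the 21 listed p53 genes of arrest and feedback, 5 of 15 of apoptosis and 2 of 21 of repair and metabolism, and also in 3 of the 9 listed GBP and IRG genes. The E-box was in 3 of the 9 listed clock genes of the negative arm and also in 5 of the 15 p53 genes of apoptosis. A match describes the letters of the window and shows no binding.

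Dbp, a D-box binding activator and one of the most rhythmic genes of liver, was at 7.29 and 7.16 in the 0 h females and at 2.85 and 2.06 in the 0 h males. At 24 h it was at 4.23 and 5.01 in males and at 4.08 and 4.74 in females, so the 24 h arrays lay between the 0 h pairs. It fell 7.02-fold in females (adjusted p = 0.00068) and rose 4.5-fold in males (adjusted p = 0.00453), and the average over the sexes, -0.32, did not pass the test. Tef, a related factor, repeated this order, at 6.78 and 6.78 in 0 h females, 4.87 and 4.92 in 0 h males and 5.6 to 6.06 at 24 h. Cry2, a repressor, fell 2.06-fold in females and rose 1.34-fold in males, and Wee1, a clock-driven kinase of the output list that restrains mitosis, fell 6.42-fold in females and rose 1.92-fold in males. Leaving out male 1 or male 2 of either time ended the male call of Wee1 (adjusted p = 0.0521 to 0.111), and that of Cry2 was lost without male 2 at 0 h or either 24 h male. The output list had 23 members tested, which moved in both directions. In females 4 rose and 6 fell, beside backgrounds of 6.64% and 7.91%. In males 1 rose and 1 fell, beside 9.02% and 5.74%. The male change was above the female change in 4 members and below it in 3, beside 8.5% and 5.35%.

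Several clock genes changed in females alone by the test. Ciart was at -0.07 and -1.14 in the 0 h females and not well above background on the other 6 arrays, which makes it at least 7.9-fold lower in females at 24 h. Per3 was likewise well above background only in the 0 h females, at -1.08 and -1.74, and was at least 4.52-fold lower there at 24 h. Usp2, a rhythmic deubiquitinase, was at 3.57 and 2.86 in the 0 h females, at -0.86 and -1.29 in the 0 h males and between -1.08 and 0.72 at 24 h, and it fell by 3.40 on the log2 scale in females. With normexp the female changes of Ciart, Per3 and Wee1 were -1.64, -0.97 and -1.9. Per2 fell 3.67-fold (adjusted p = 0.00842), Nr1d2 1.89-fold (adjusted p = 0.0258) and Gys2, the liver glycogen synthase, 2.23-fold (adjusted p = 0.00103) in females.

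The activator Arntl ran opposite to its repressors, at -0.84 and -0.52 in the 0 h females, 1.83 and 1.84 in the 0 h males and 1.2 to 1.74 at 24 h. It rose 4.37-fold in females (adjusted p = 4.13e-05) and was at -0.32 in males (adjusted p = 0.251), a difference between the sexes of -2.45 (adjusted p = 0.000308). Nfil3, which competes with Dbp for D-boxes, rose 2.04-fold in females. Clock (adjusted p = 0.0507 in females), Nr1d1 (0.246) and Per1 (0.484) did not pass the test in females. The female values of Nr1d2 lost their call when any of the 4 female arrays was left out, with adjusted p between 0.0842 and 0.13, those of Per2 without female 1 at 0 h or female 2 at 24 h, and those of Nfil3 without female 1 of either time. In the 7 list members called in females, and in Wee1, Usp2, Gys2, Arntl and Nfil3, the sexes differed at 0 h (adjusted p of at most 0.00181 in limma). At 24 h the male minus female difference lay between -0.2 and 0.91 in these 12 genes and none passed the test, the lowest adjusted p being 0.272. The part of the 0 h difference in the female changes was not tested.

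**Figure D2:**
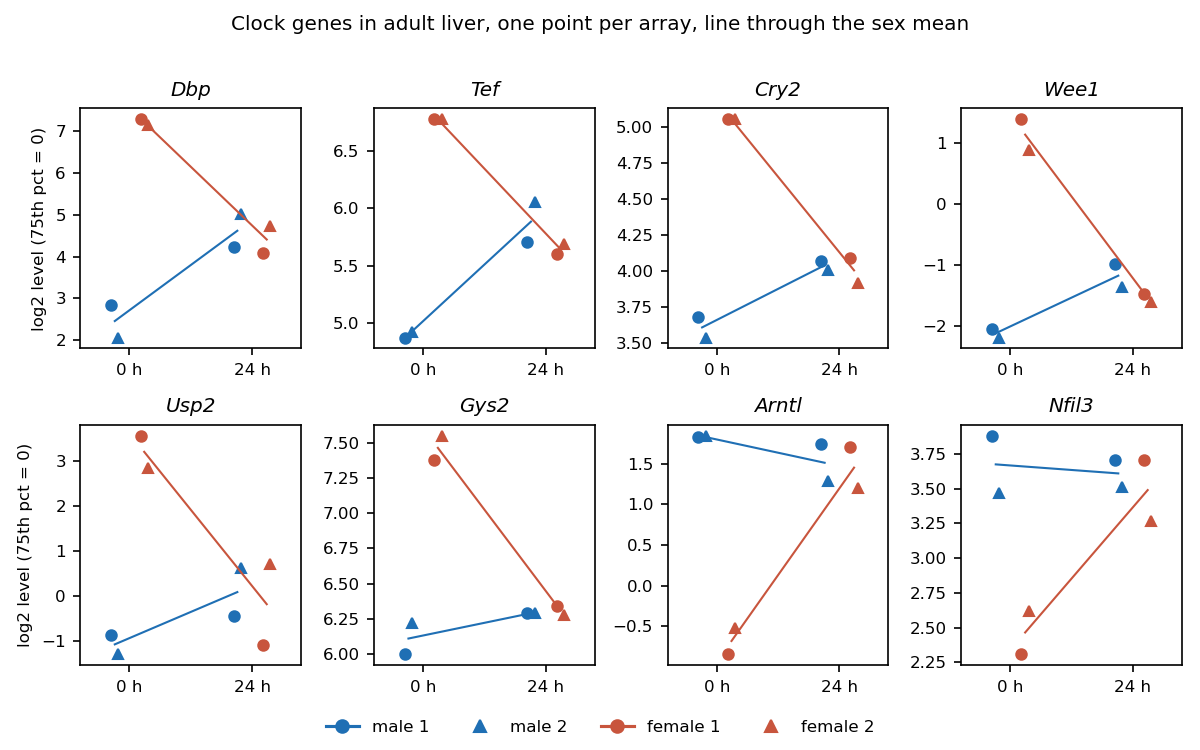
Levels of 8 clock and clock-driven genes (y axis, log2 with each array's 75th percentile at 0) at 0 h and 24 h; each point is an array, blue for males and red for females, circles for number 1 and triangles for number 2, and lines join the means of each sex. In Dbp, Tef, Cry2, Wee1, Usp2 and Gys2 the 2 females at 0 h lie above all other arrays, and in Arntl and Nfil3 below them.

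Targets of p53 were higher at 24 h in both sexes. In the list of cell-cycle arrest and feedback genes 10 of 24 rose and 1 fell on the average, in that of apoptosis 9 of 18 rose, and in that of repair and metabolism 8 of 26 rose and 1 fell. Called in both sexes were 4, 5 and 5 of them, all higher, beside a background of 1.6%. The medians of the average change were 0.46, 0.35 and 0.21, beside 0.02 over all genes. Without male 1 at 0 h the counts in both sexes were 6, 4 and 5, without male 2 at 0 h 2, 3 and 5, and without male 2 at 24 h 3, 3 and 4.

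Phlda3, a p53-induced inhibitor of the kinase Akt, had the largest rise among the genes called in both sexes. At 0 h it was at 1.27 and -1.09 in males and -0.59 and -0.77 in females, and at 24 h at 2.54, 2.61, 2.88 and 2.97. All 24 h arrays lay above all 0 h arrays, the 0 h male 1 array being the closest. The average rise was 8.24-fold (log2 3.04 ± 0.33 SE, adjusted p = 0.000161), 12.2-fold in females and 5.58-fold in males. The size of the male rise depended on the 0 h array: it was 12.7-fold without male 1 and 2.46-fold without male 2, and passed the test in both cases. Bax, which opens the mitochondrial membrane in apoptosis, rose 2.17-fold on the average, from 3.78, 3.05, 2.57 and 2.73 to 4.31, 4.22, 4.03 and 4.06. Aen, a nuclease of apoptosis, rose 2.36-fold (adjusted p = 0.000113), by nearly the same amount in the sexes. The death receptors rose as well. Fas rose 1.36-fold, and Tnfrsf10b 2.57-fold, with 0 h levels of -1.27 and -2.61 in males and -2.49 and -2.25 in females. The male call of Tnfrsf10b was lost in the paired fit with replicate block (adjusted p = 0.0537) and without any array other than male 1 at 0 h (up to 0.3), and the calls of Fas were lost without any array of the sex concerned (0.0501 to 0.224).

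Cdkn1a, the cyclin-dependent kinase inhibitor p21 that arrests the cell cycle, was at 2.66, 2.58, 2.36 and 2.41 at 24 h. Its 0 h levels differed widely, at 2.24 and 0.41 in males and -3.28 and -3.21 in females, where 1 of the 2 female arrays was well above background. No 0 h array reached the lowest 24 h level. The rise was 49.5-fold in females (log2 5.63, adjusted p = 1.8e-05), against a log2 change of 3.25 when all probes of the gene were averaged and 3.91 with the normexp background correction. The male change of 1.29 did not pass the test (adjusted p = 0.0657). Without male 1 at 0 h it was 2.21 and passed (adjusted p = 0.00454), and without male 2 at 0 h it was 0.38 (adjusted p = 0.5). The changes differed by -4.33 between the sexes (adjusted p = 0.00141), and by -3.42 and -5.25 without male 1 and male 2 at 0 h. Trp53inp1, a p53 cofactor, rose 3.14-fold in females and was at 0.22 in males (adjusted p = 0.564), a difference of -1.43 that lost its call without male 1 at 0 h (-1.22, adjusted p = 0.065).

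Among the feedback genes, Mdm2, the ligase that degrades p53, went from 4.15, 3.66, 3.42 and 3.44 to 4.67, 4.67, 4.19 and 4.39, a 1.75-fold rise (adjusted p = 0.000172). Ccng1, cyclin G1, went from 1.49 to 1.91 at 0 h to 2.57 to 2.91 at 24 h, and rose 2.08-fold in females and 2.09-fold in males. Zmat3, an RNA-binding p53 target, rose 1.36-fold on the average, and Psrc1, a spindle protein induced by p53, rose at least 2.27-fold in females, since it was not well above background there at 0 h. The call of Zmat3 in males was lost without any array other than male 1 at 0 h and the 24 h females (adjusted p = 0.0541 to 0.283). That of Psrc1 was lost without male 2 at 0 h or male 1 at 24 h (adjusted p = 0.144 and 0.152).

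Among repair and metabolism genes, Ddias, an anti-apoptotic damage-induced gene, rose 3.83-fold on the average (log2 1.94 ± 0.16 SE, adjusted p = 4.33e-05), from between -2.64 and -0.98 to between -0.19 and 0.04. Mgmt, which removes alkyl groups from DNA, rose 1.82-fold, to 4.47, 4.69, 4.66 and 4.69. Ephx1, an epoxide hydrolase, rose 1.74-fold from levels already near 8, and Polk, a translesion polymerase, rose 1.69-fold, its male call being lost without male 2 at 24 h (adjusted p = 0.0515). The larger female than male rise of Ddias (difference -1.11, adjusted p = 0.0349) was lost with the replicate block (0.0525) and without any 1 of 6 arrays (0.0582 to 0.107). Eda2r, a p53 target of the same group, was not among the genes tested.

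Interferon-stimulated genes rose in both sexes, and the list of their effectors had the largest share of members called in both sexes among the 43 lists examined. Of 37 effectors tested 33 rose on the average, 33 in females and 25 in males, and those 25 were called in both sexes, beside a background of 1.6%. None fell. Their median change was 1.08, beside 0.02 over all genes. The average count stayed at 33 without each of the 8 arrays in turn, while the count in both sexes was 27 without male 1 at 0 h, 8 without male 2 at 0 h, 11 without male 1 at 24 h and 7 without male 2 at 24 h. Quantile normalization and median scaling each left 16. The other lists held 12 of 24 sensing and signalling genes higher and 1 lower, all 5 of the ISG15 system higher, 11 of 16 GBP and IRG genes higher and 9 of 17 genes of MHC class I presentation higher on the average. In both sexes these lists had 8, 3, 6 and 3 genes, all higher. Without male 2 at 24 h they had 1, 1, 2 and 0, and without male 2 at 0 h 4, 2, 1 and 0.

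Among sensors and transcription factors of the pathway, 8 rose and 3 fell in females (Irf8, Jak1 and Irf3), and 15 rose in males. The backgrounds were 6.64%, 7.91% and 9.02%. Irf7, the factor that amplifies interferon production, was at 1.61, 0.62, 0.25 and 0.16 at 0 h and at 2.43, 2.72, 2.63 and 2.47 at 24 h, with no overlap, and rose 3.74-fold (log2 1.9 ± 0.2 SE, adjusted p = 0.00013). Its male change lost the call without male 2 at 24 h (1.31, adjusted p = 0.0547). Irf9, part of the complex that binds the interferon-stimulated response element, rose 1.98-fold. The RNA sensors Dhx58 and Ddx58, the gene of RIG-I, rose 2.73-fold and 1.74-fold, and the RNA-activated kinase Eif2ak2 rose 2.12-fold. Of these, Irf9, Dhx58 and Eif2ak2 lost the male call without male 2 at 0 h (adjusted p = 0.0924, 0.0983 and 0.128) and without male 2 at 24 h (0.0857, 0.0556 and 0.103), Dhx58 and Eif2ak2 also without male 1 at 24 h (0.0701 and 0.057), and Ddx58 lost the female call without female 2 at 0 h (0.0549) or female 1 at 24 h (0.0882). Jak1, the receptor kinase, was the 1 member that fell on the average, by 0.32 on the log2 scale.

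The interferon genes themselves were dim. Of 7 tested, 2 were well above background on all 8 arrays, none passed the test in limma on the 75th-percentile scale, and 2 rose on the average with the normexp background correction. Ifng was not well above background on any of the 8 arrays. Ifnar1 and Ifnar2, the chains of the receptor for type I interferons, were well above background on all arrays and were not called on the average (adjusted p = 0.0956 and 0.079).

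Isg15, a ubiquitin-like protein joined to other proteins, rose 5.12-fold (log2 2.36 ± 0.24 SE, adjusted p = 0.00013), from 5.53, 3.99, 3.75 and 3.71 to 6.44, 6.37, 6.8 and 6.79. The 24 h arrays lay above all 0 h arrays, and the 0 h male 1 array was again the highest of its group. Its male call was lost without male 2 at 24 h (1.69, adjusted p = 0.0519), and its male change of 1.65 was 2.42 without male 1 at 0 h and 0.88 without male 2 at 0 h. The enzymes of its cycle rose as well: Usp18, which removes it, 2.95-fold, Herc6, a ligase, 2.11-fold, Ube2l6, which carries it, 1.68-fold, and Uba7, which activates it, 1.62-fold. Ube2l6 did not pass in males (adjusted p = 0.0571) nor Uba7 in females (adjusted p = 0.119). Uba7 lost its male call without male 2 of either time or male 1 at 24 h (adjusted p = 0.0605 to 0.11). Herc6 lost its male call without male 2 of either time (adjusted p = 0.103 and 0.126), and Usp18 its female call without female 1 at 0 h (0.0558) or female 2 at 24 h (0.054).

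Antiviral effectors of several kinds rose. Ifit1, which binds foreign RNA, went from 1.02, -0.52, -0.06 and -0.04 to 1.98, 1.85, 2.97 and 2.83, a 4.94-fold rise (log2 2.31 ± 0.27 SE, adjusted p = 0.00026). Cmpk2, a mitochondrial nucleotide kinase, rose 3.48-fold, Oasl1 3.38-fold and Oas1a, which makes the activator of RNase L, 2.88-fold. Ifi44 rose 5.53-fold in females and 2.22-fold in males, and the change of Cmpk2 was likewise larger in females. Those differences were -1.32 and -1.2 (adjusted p = 0.0466 and 0.037), and without male 1 at 0 h they were -0.8 and -0.71 and did not pass. Leaving out most of the other arrays also ended these calls (adjusted p = 0.0628 to 0.135). Xaf1, which promotes apoptosis, rose 3.36-fold, and Ly6a, a surface protein induced by interferon, 3.54-fold. Dtx3l, a ubiquitin ligase, and Ifi35 rose by less, 1.57-fold and 1.72-fold, with small standard errors of 0.07 and 0.09. Without male 2 at 24 h the male calls of Ifit1 (adjusted p = 0.0643), Ifi44 (0.0734), Oasl1 (0.0669) and Xaf1 (0.0604) were lost, and without male 2 at 0 h those of Ifit1 (0.0759), Ifi44 (0.136) and Oasl1 (0.0895). Without male 1 at 24 h those 3 had adjusted p of 0.0536, 0.0845 and 0.0665. Oas1a lost it without any of the same 3 arrays (0.0671 to 0.134). The male changes of Ifit1, Oas1a, Oasl1 and Xaf1 lay between 1.9 and 2.44 without male 1 at 0 h and between 0.62 and 0.89 without male 2 at 0 h.

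GTPases that attack the vacuoles of intracellular microbes rose next. Gbp6 went from between 0.88 and 1.56 to 2.6, 2.51, 3.5 and 3.22, a 3.34-fold rise. Igtp and Irgm1 rose 2.36-fold and 2.26-fold, and Iigp1 rose 1.74-fold. Irgm1 kept both of its sex calls without each array in turn, while Gbp6, Igtp and Iigp1 lost the male call without male 2 at 0 h (adjusted p = 0.087, 0.0681 and 0.12) and without male 2 at 24 h (0.0695, 0.0832 and 0.121), Gbp6 and Iigp1 also without male 1 at 24 h (0.0554 and 0.0892). Igtp and Iigp1 lost the female call without female 2 at 0 h (0.0951 and 0.078) and without one of the 24 h females (0.0666 and 0.06). In antigen presentation, Psmb8, a catalytic subunit of the immunoproteasome, rose 1.53-fold, Tapbp, which loads peptides, 1.29-fold and H2-T23, a nonclassical class I molecule, 1.35-fold. These small rises lost the call in both sexes under quantile normalization and with the replicate block, where 0 of the 17 presentation genes were called in both sexes (for Psmb8 in males adjusted p = 0.067, for Tapbp 0.0858 in females and 0.0552 in males, for H2-T23 0.0503 in females), and H2-T23 lost its call on the average under quantile normalization (adjusted p = 0.123). Leaving out male 2 at 0 h, for example, gave male adjusted p of 0.222, 0.145 and 0.183.

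**Figure D3:**
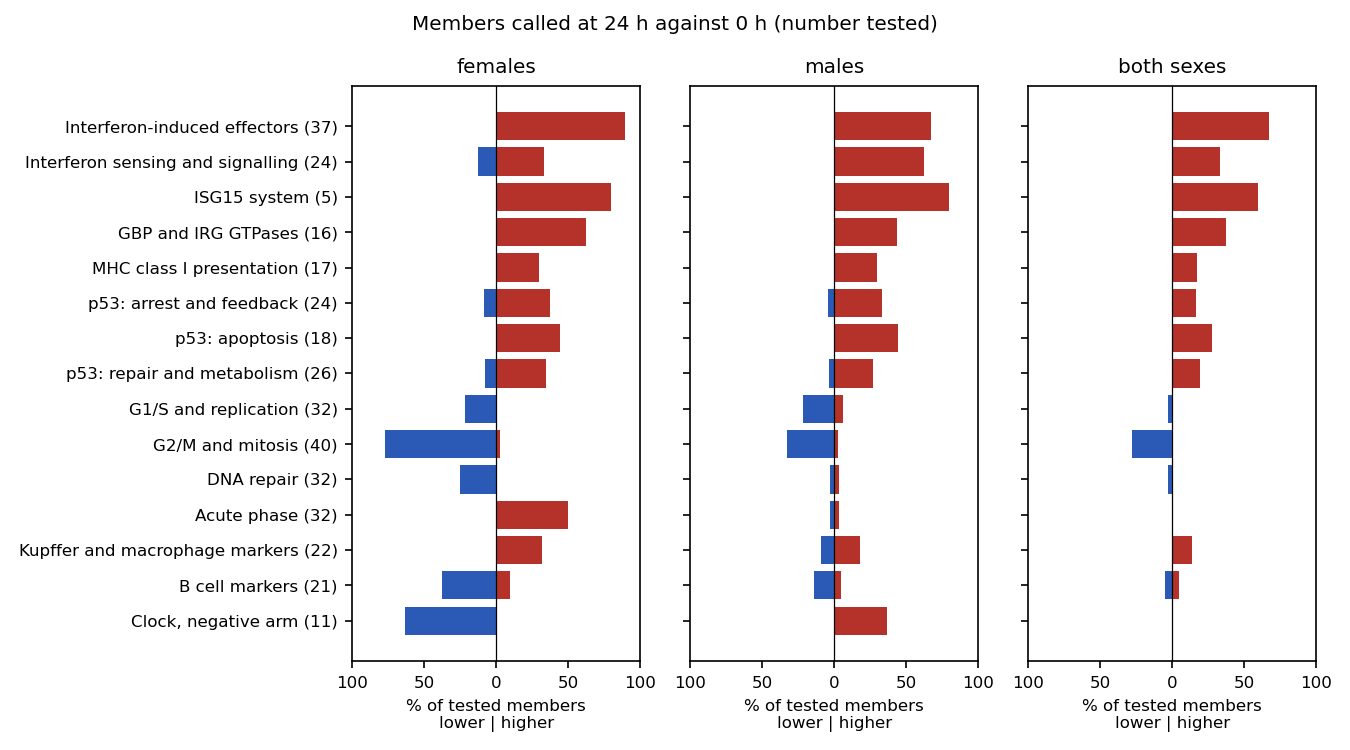
Share of the tested members of each gene list (number tested in brackets) that was called higher (red, to the right) or lower (blue, to the left) at 24 h, in percent, for females, males and both sexes. Interferon-induced effectors reach 25 of 37 in both sexes and mitosis genes 11 of 40 lower, while the negative arm of the clock has 7 of 11 lower in females and 4 of 11 higher in males.

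Genes of mitosis were lower at 24 h, more widely in females. Of 40 tested, 28 fell and 1 rose on the average, 31 fell in females and 13 in males, and 11 fell in both sexes beside a background of 0.563%. The median change was -1.66 in females and -0.44 in males, and the male change was above the female change in 14 members, below it in 0. Only 11 of the 40 were well above background on all 8 arrays. The male falls were fragile: in both sexes 2 members remained called without male 1 at 0 h, 0 without male 2 at 24 h, 0 with the normexp background correction, 3 after median scaling, 6 after quantile normalization and 7 with the replicate block. The fall on the average kept 27 to 32 members without each array in turn, and 18 with normexp.

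Ccna2, cyclin A, which drives DNA synthesis and entry into mitosis, was at -1.98, -2.67, -1.06 and -0.38 at 0 h and not well above background on any 24 h array, so it was at least 3.31-fold lower on the average, at least 7.28-fold in females and at least 1.51-fold in males. Prc1, which bundles the spindle midzone, was at least 3.51-fold lower on the average in the same way. Such a bound sets the measured group against the lowest signal that was well above background on each dim array, or the probe's own signal where that was higher. Cdc20, which starts anaphase, could be measured throughout, at 0.15, -1.26, 1.42 and 1.61 at 0 h and -1.58, -2.1, -1.73 and -1.96 at 24 h. It fell 5-fold on the average (log2 -2.32 ± 0.25 SE, adjusted p = 0.000161), 10.3-fold in females and 2.44-fold in males, and the changes differed by 2.07 (adjusted p = 0.0174), a difference lost without female 2 of either time or male 1 at 24 h (0.0513 to 0.058).

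Other mitotic genes fell in the same way. In the next 4 all 0 h arrays lay above all 24 h arrays, as in 711 of all genes tested. Lack of overlap was partly why genes were named. Birc5, which encodes survivin, fell 2.81-fold, Ube2c, a partner of the anaphase-promoting complex, 2.64-fold, Mki67, the proliferation marker, 4.07-fold, and Ccnb2, a mitotic cyclin, 3-fold. Birc5 was at 0.54, -0.03, 1.69 and 1.83 at 0 h and at -0.21, -0.57, -0.56 and -0.58 at 24 h. With the normexp correction, whose offset of 50 shrinks changes of dim probes, the average log2 falls were smaller, -0.91 for Ccna2, -0.84 for Prc1, -1.53 for Cdc20, -0.63 for Ube2c and -1.07 for Mki67. Plk1, a mitotic kinase, fell 7.02-fold in females and was at least 2.62-fold lower in males. Cenpe, a kinetochore motor, fell 3.97-fold in females and was at least 1.8-fold lower in males, and Cdc25b, a phosphatase that starts mitosis, fell 3.49-fold in females, a call lost without 3 of the 4 female arrays (adjusted p = 0.0597 to 0.0967). With the replicate block the male falls of Prc1 (adjusted p = 0.0731), Cdc20 (0.0594), Plk1 (0.0745), Cdc25b (0.0689), Ccnb2 (0.0609) and Birc5 (0.0663) did not pass. Without male 2 at 24 h the male falls of Ccna2, Prc1, Cdc20, Plk1, Mki67, Cenpe, Cdc25b, Ccnb2 and Birc5 had adjusted p between 0.165 and 0.376, and without male 1 at 0 h between 0.0673 and 0.322. That of Ube2c was lost only without male 2 at 24 h (0.0775), among these arrays, and its sex difference with the replicate block (0.0542). Cep55 was the 1 member that rose. In females it was not well above background at 0 h and was at 0.61 and 0.54 at 24 h, at least 18.7-fold higher. Both its calls were fragile: the female one was lost without any female array (adjusted p = 0.0577 to 0.0993), and the average one without any array other than male 1 at 0 h (0.0859 to 0.153) and with the replicate block (0.0927).

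Replication genes fell less. Of 32 tested, 10 fell and 1 rose on the average, beside backgrounds of 5.82% and 8.52%, and 1 fell in both sexes, beside 0.563%. That 1 was Rrm2, the ribonucleotide reductase subunit that supplies DNA precursors, which went from 0.72, 0.25, 1.27 and 1.77 to -0.27, -0.34, -0.28 and -0.23, a 2.43-fold fall (adjusted p = 0.000135) whose male part was lost without male 1 at 0 h (adjusted p = 0.13) or male 2 at 24 h (0.0943). Ccne1, cyclin E, fell 7.12-fold in females (log2 -2.83, against -1.71 when its probes were averaged) and was at -0.03 in males (adjusted p = 0.961), a difference of 2.8 (adjusted p = 0.00313). With its probes averaged that difference was 1.49 and did not pass (adjusted p = 0.0962). The sex difference of Rrm2, 0.99, was lost without 6 of the 8 arrays (0.0599 to 0.11). Pola1, of the primase complex, fell 1.5-fold. Without female 1 at 24 h the list had 4 members lower on the average, without male 2 at 24 h 5 and without female 2 at 0 h 5. Males had 7 members lower, against 1 without male 1 at 0 h and 0 without male 2 at 24 h.

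Of 32 DNA repair genes tested, 1 rose and 3 fell on the average. In females 8 fell and none rose, beside a background of 7.91% lower, in males 1 rose and 1 fell, and the male change was above the female change in 6. Xrcc6, which binds broken ends as Ku70, fell 1.5-fold in females and rose 1.19-fold in males. The male rise did not pass with the replicate block (adjusted p = 0.0627) nor without any 1 of the 8 arrays (0.0514 to 0.203).

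**Figure D4:**
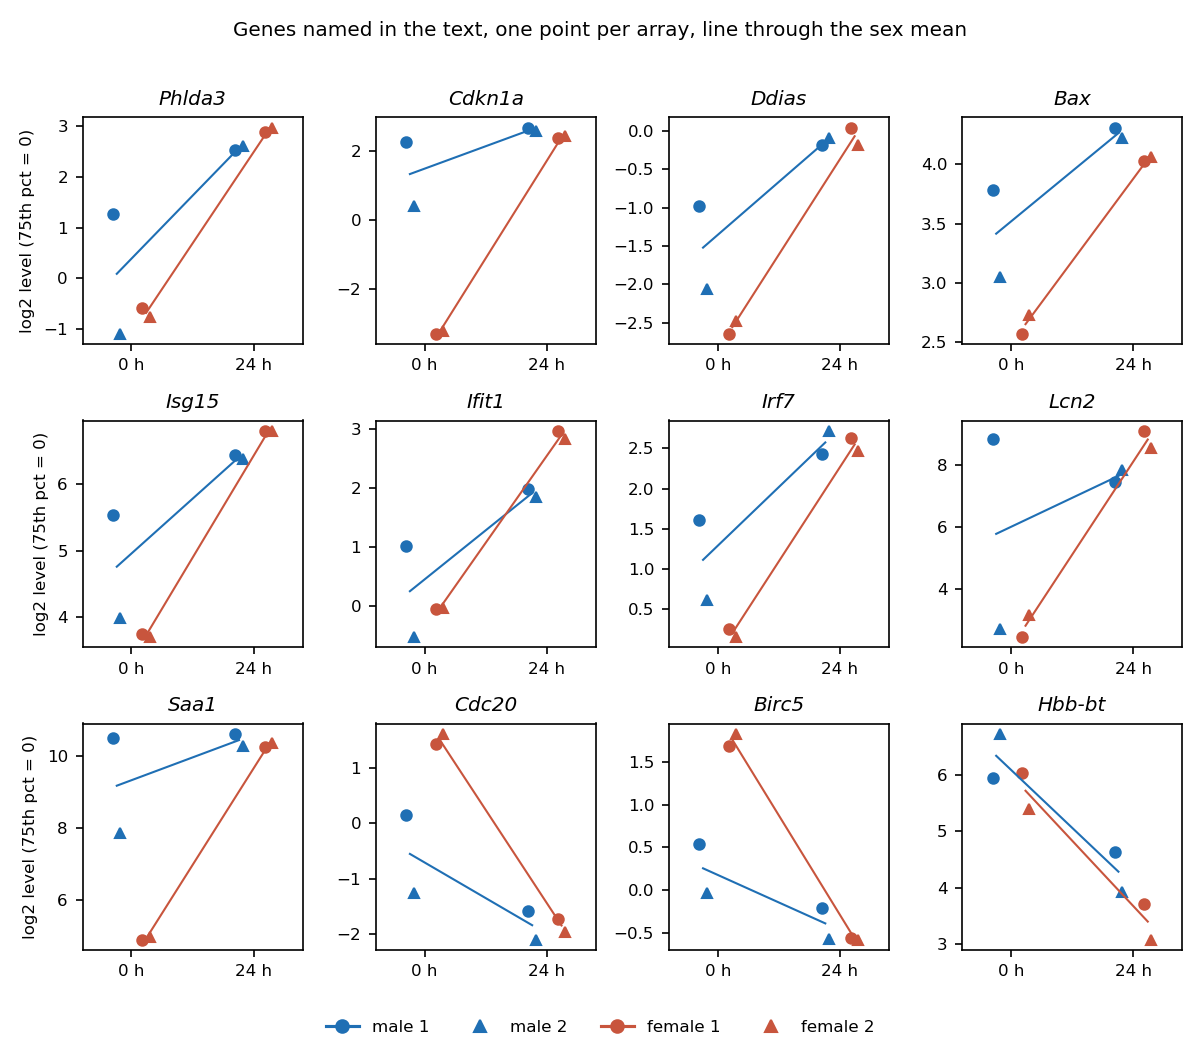
Levels of 12 genes (y axis, log2 with each array's 75th percentile at 0) at 0 h and 24 h; each point is an array, blue for males and red for females, circles for number 1 and triangles for number 2, and lines join the means of each sex. The 4 arrays at 24 h lie above the 4 at 0 h in Phlda3, Cdkn1a, Ddias, Bax, Isg15, Ifit1 and Irf7, and below them in Cdc20, Birc5 and Hbb-bt, while in Lcn2 and Saa1 the 0 h male 1 array lies among the 24 h arrays. Over all genes tested, the 24 h arrays lie wholly above in 1292 and wholly below in 711.

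Acute-phase genes, which encode plasma proteins that liver makes in inflammation, rose in females and rested on the 0 h male 1 array in males. Of 32 tested, 16 rose in females, beside a background of 6.64%. In males 1 rose and 1 fell, beside 9.02% and 5.74%, and 0 were called in both sexes. Without male 1 at 0 h, 10 rose in males, 8 in both sexes and 22 on the average, against 11 on the average with it. Leaving out any 1 female array left 8 or 9 higher in females. Saa1, serum amyloid A, was at 4.91 and 4.97 in the 0 h females, at 7.86 on male 2 at 0 h and between 10.25 and 10.62 at 24 h, and male 1 at 0 h lay within that 24 h range. It rose 41.3-fold in females (log2 5.37, adjusted p = 0.000116), and Saa2, a near-identical neighbour whose signal may be shared, 29.1-fold. Their male changes of 1.26 and 0.83 did not pass. Without male 1 at 0 h these were 2.58 (adjusted p = 0.000568) and 1.99 (adjusted p = 0.0116).

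Lcn2 rose 63.3-fold in females, to 9.09 and 8.53, and the male level was at 7.46 and 7.82 at 24 h, between the 0 h males. Its average call was lost with the replicate block (adjusted p = 0.0576) and its female call without any 1 female array (0.0603 to 0.0874). Its average change was 3.92 with all arrays, 5.45 without male 1 at 0 h and 2.39 without male 2 at 0 h. In males it was 1.86 (adjusted p = 0.41), 4.92 without male 1 at 0 h (adjusted p = 0.0213) and -1.2 without male 2 at 0 h (adjusted p = 0.494). Hp, haptoglobin, rose 2.24-fold, Itih4 2.27-fold and Serpina3n, a protease inhibitor, 4.25-fold in females. The difference between the sexes was called for Saa1 (-4.1), Saa2 (-4.03) and Hp (-0.87). Without male 1 at 0 h it was -2.79 for Saa1 and -2.87 for Saa2 and stayed called. That of Hp was lost with the replicate block (adjusted p = 0.0688) and without 6 of the 8 arrays, male 1 at 0 h among them (0.0621 to 0.153). It was not called for Lcn2 (-4.12, adjusted p = 0.196) and was called without male 2 at 0 h (-7.18, adjusted p = 0.00671).

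Markers of blood and immune cells moved as follows. Globin genes fell in both sexes: Hbb-bt went from 5.95, 6.73, 6.04 and 5.4 to 4.64, 3.93, 3.72 and 3.08, a 4.56-fold fall (adjusted p = 0.000563), and Hba-a1 fell 2.67-fold. The copies of each globin are close in sequence, so their probes may share signal. No other of the 18 erythroid markers tested was called on the average in limma. Without male 2 at 24 h the male falls of Hbb-bt (-1.7, adjusted p = 0.0779) and Hba-a1 (-0.94, adjusted p = 0.178) were lost.

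Of 21 B cell markers 8 fell and 1 rose on the average, beside backgrounds of 5.82% and 8.52%. With the normexp correction 2 fell. Fcmr, the IgM receptor, was at -1.29 and -1.21 in the 0 h females and not well above background on the other 6 arrays, which makes it at least 5.04-fold lower in females. Ms4a1, which encodes CD20, was at least 3.49-fold lower there, and Cd79b, part of the B cell receptor, fell 3.64-fold in females. Their changes differed between the sexes by 4.47, 1.58 and 1.25, and that of Cd79b lost its call without any 1 of 6 arrays (adjusted p = 0.0753 to 0.156). Cd79a, a defining marker, was not well above background on any array. The list averaged -1.21 and -1.35 in the 0 h females and between -2.37 and -2.03 on the other 6 arrays. Normexp gave smaller female changes of Fcmr (-1.11), Ms4a1 (-0.57) and Cd79b (-0.93). It also gave smaller sex differences of Fcmr (1.04, still called) and Ms4a1 (0.53, adjusted p = 0.105, no longer called).

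Ccr7, the lymph-node homing receptor of lymphocytes and dendritic cells, was at -3.5 and -2.75 in the 0 h males and -1.63 and -1.5 in the 0 h females, and was at least 4.06-fold lower in females at 24 h, when no array was well above background. Nkg7, of cytotoxic cells, fell 1.43-fold in females. Of 24 T and NK cell markers tested, 4 fell and none rose on the average, beside backgrounds of 5.82% and 8.52%. In females 3 fell and 1 rose, beside 7.91% and 6.64%, and in males 1 fell and 1 rose, beside 5.74% and 9.02%. The call of Cxcr5, lower in both sexes, comes from a probe that no adult array measured well above background, and its female change was 0.01 with the normexp correction (adjusted p = 0.95). Cd72, a receptor on B cells that also marks some macrophages, was the member of the B cell list that rose on the average, 2.98-fold, from 0.3, -0.89, -0.95 and -0.95 to between 0.79 and 1.05. Without male 2 at 0 h its male change was 0.57 and did not pass (adjusted p = 0.102), nor without male 1 or male 2 at 24 h (0.073 and 0.0707).

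Kupffer cell and macrophage markers rose in 8 of 22 members and fell in 1 on the average, with 3 higher in both sexes. The backgrounds were 8.52%, 5.82% and 1.6%. Fcgr1, a high-affinity IgG receptor, rose 2.37-fold, from between -1.7 and -0.8 to between -0.48 and 0.16. Cd5l, a macrophage-secreted protein, rose 1.74-fold and Clec4f, which marks Kupffer cells, 1.43-fold. C1qa, of complement, rose 1.74-fold and Marco, a scavenger receptor, 3.09-fold in females. The male calls of Fcgr1, Cd5l and Clec4f were lost without male 2 at 0 h (adjusted p = 0.112, 0.29 and 0.175) or male 1 at 24 h (0.109, 0.189 and 0.169), and the female calls of Cd5l, Clec4f and C1qa without 3, 4 and 4 of the 4 female arrays. Marco lost its female call without female 1 at 24 h (0.0717). The mean of the list was 1.66 to 1.99 at 0 h and 1.8 to 2.19 at 24 h. The chemokine Ccl7, which draws monocytes, was not well above background at 0 h and was at least 1.78-fold higher at 24 h, with 3 of 4 arrays above background. Its male call was lost with the replicate block (adjusted p = 0.0732) and without male 2 of either time (0.216 and 0.254). Csf1, the macrophage growth factor, rose 1.54-fold on the average, without a call once the replicate block was added (adjusted p = 0.0575) or without 5 of the 8 arrays (0.0504 to 0.0999).

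Metabolic lists held few genes called in both sexes. Of 20 fatty acid synthesis genes 4 fell on the average, beside a background of 5.82%, among them Thrsp, a lipogenic regulator, by 1.07 on the log2 scale, and Elovl5, which lengthens polyunsaturated fatty acids, was the 1 lower in both sexes (1.35-fold), a call lost in both sexes with the replicate block (adjusted p = 0.0695 in females and 0.0576 in males). Cholesterol synthesis had 2 of 25 higher, fatty acid oxidation 4 of 31 and bile acid genes 5 of 19 on the average, beside a background of 8.52%. Nfe2l2, the oxidative-stress factor NRF2, rose 1.45-fold on the average and 4 of 20 genes of its list rose, while 6 rose in males and 2 fell in females. The backgrounds of these counts were 8.52%, 9.02% and 7.91%. Hsph1, a heat-shock protein, fell 1.87-fold. The ribosomal protein genes Rpl10, Rpl3 and Rps20 rose in both sexes by 1.32-fold, 1.39-fold and 1.32-fold, and none of the 11 histone and ribosome genes was called in both sexes with quantile normalization or median scaling. Hgf, the hepatocyte growth factor, rose 1.53-fold on the average, from between -1.67 and -1.05 to between -0.81 and -0.53, and its female call was lost without any female array (adjusted p = 0.0783 to 0.19).

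Of 28 genes with female-biased expression in liver, 1 rose and 4 fell on the average, beside backgrounds of 8.52% and 5.82%. In females 3 fell and in males 5 rose, beside 7.91% and 9.02%. The male change was above the female change in 6, beside a background of 8.5%. Sult2a1, a steroid sulfotransferase of female liver, was at 5.24 and 2.73 in the 0 h females and 2.56 and 1.94 in the 24 h females, whereas in males it was not well above background at 0 h and at -1.2 and -2.76 at 24 h, with 1 of 2 arrays well above background. Its bound in males was 2.58-fold higher at 24 h, which rests partly on the 24 h array not well above background. With normexp its male change was 0.95 and did not pass (adjusted p = 0.292). Its female change of -1.74 did not pass either (adjusted p = 0.0791). Cux2, a transcription factor of female liver, fell 9.3-fold in females, with 1 of 2 arrays well above background at 24 h, and its female change of -3.22 was -1.7 with normexp and between -3.97 and -2.47 without 1 of the female arrays. Its average call was lost with the replicate block (adjusted p = 0.0662). Of 23 male-biased genes, 1 rose on the average and 1 fell in females, and no sex difference passed the test in limma. Chat, the enzyme that makes acetylcholine, stands for the dim genes that moved oppositely: it was at least 4.18-fold higher in females and at least 1.46-fold lower in males at 24 h, and was well above background only in the 0 h males and the 24 h females. The female call was lost without 3 of the 4 female arrays (adjusted p = 0.0681 to 0.123) and the male call without male 1 at 0 h or male 2 at 24 h (0.058 and 0.104).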

How the data were processed

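Liver RNA was hybridised to 1-colour Agilent arrays, 24 in the series and 8 in this comparison. The scanner intensity values deposited by the authors are background-corrected spot signals, written by Feature Extraction 10.5.1.1 per the file headers, whereas the submitters' processing notes name version 11.5.1. The authors also deposited a table of log2 values per probe. Its correlation with the scaled scanner values, less each probe's median over the 24 arrays, was 1 on each array, and its adult columns had medians between 0.018 and 0.18. Flag columns per spot (well above background, saturated, outlier), unit other, were used as deposited.

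Spots of a probe were averaged after control and outlier spots were left out (59305 spots, 55681 probes, 0 saturated), the log2 signal had the 75th percentile of its array subtracted, and the brightest probe stood for a gene. RefSeq accessions gave current symbols to 28026 of 29796 probes (94.1%). The other 27655 kept the name in the file. Genes well above background on at least 4 of the 24 arrays were tested (23111). limma 3.58.1 in R 4.3.3 fitted 12 group means over all 24 arrays, since 8 arrays leave few residual degrees of freedom, with Benjamini-Hochberg adjustment over all genes and a threshold of 0.05. On simulated data with 200 changed genes of 23111, the average comparison recovered 49.3%, 71.6% and 93.9% of 1.5-fold, 2-fold and 4-fold changes with 9 unchanged genes among 152 calls, and the comparison in both sexes 23.9%, 53.7% and 78.8% with 0 among 104. The simulated noise was independent between genes and arrays, without slide or shared array effects. These counts therefore do not measure the false calls on the real arrays.

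Named genes were the preset p53 targets and the core clock genes, the genes called in both sexes, without overlap of the arrays within a sex, that rose most (up to 12) or fell most (up to 12), up to 8 in each direction for the sex difference, and up to 5 per list with the largest moderated t. Other names in the text (Jak1, the interferon and receptor genes, cell markers at background) were chosen after their values were seen. The members and lists were chosen with earlier results of these data known. The comparisons of the sexes at 0 h and at 24 h, and the filter to genes measured on all 8 arrays, were added after the data were seen. Arrays with the same number at 0 h and 24 h deviated together from their group means (correlation 0.28 in males and 0.14 in females), so the numbers were treated as a pairing in a fit with replicate block, and a blocked value is given where it changes a call. Alternatives were other scalings, background corrections, filters, slide and replicate blocks, the deposited table and leaving out each array. The files hold no mean signal, so normexp (offset 50) used the median signal and median background in its place. Some genes are not reported here by name. The number of arrays limits the precision.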

Additional observations from a re-analysis of the deposited data

Results flagged for a closer look

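In 8 genes 1 of the 4 arrays of a time stood apart from the other 3, its gap to the nearest of them divided by the range of the group being above Dixon's critical value. For independent groups chance would give this in about 1 in 20, and 208 groups (104 genes at 2 times) were screened. The genes share arrays and were partly named by their results, so this rate cannot judge the 8 groups. On male 1 at 24 h, these were Mgmt at 4.47 and Birc5 at -0.21. On male 2 at 0 h, this was Ddx58 at 3.12. On male 1 at 0 h, these were Isg15 at 5.53, Ube2l6 at 4.08, Cep55 at 1.43, Cd72 at 0.3 and Lcn2 at 8.84.

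In 33 of the named genes the change from 0 h to 24 h differed between the sexes in limma. Over all genes tested the share was 13.8%. Up to 8 genes in each direction were named because of their sex difference, so the count of 33 cannot be judged against that share. The value given for each gene is the male minus the female change on the log2 scale. Among p53 and interferon genes it was -4.33 for Cdkn1a, -1.43 for Trp53inp1, -1.11 for Ddias, -1.2 for Cmpk2 and -1.32 for Ifi44. Among genes of division, replication and repair it was 2.07 for Cdc20, 1.68 for Birc5, 1 for Ube2c, 0.99 for Rrm2, 2.8 for Ccne1 and 0.84 for Xrcc6. Among immune cell markers it was 4.47 for Fcmr, 1.58 for Ms4a1, 1.25 for Cd79b and 2.23 for Ccr7. Among acute-phase genes it was -4.1 for Saa1, -4.03 for Saa2 and -0.87 for Hp. Among clock and clock-driven genes it was -2.45 for Arntl, -1.09 for Nfil3, 4.98 for Dbp, 2.13 for Tef, 2.6 for Per2, 4.4 for Per3, 1.47 for Cry2, 5.77 for Ciart, 1.21 for Nr1d2, 3.63 for Wee1, 4.56 for Usp2 and 1.34 for Gys2. Among other genes it was 5.13 for Sult2a1, 3.63 for Cux2 and -4.69 for Chat. The 24 h males lay on another slide than the other 6 arrays, so slide and sex difference cannot be told apart. Those of Cdc20, Hp, Cmpk2, Ifi44, Rrm2, Cd79b and Ddias are among the differences that were lost without single arrays. That of Ccne1 was lost when its probes were averaged, and that of Ms4a1 with normexp.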

How the results depend on the processing

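Over the 23111 genes the calls were 3313 on the average, 3361 in females, 3410 in males, 500 in both sexes and 3200 for the sex difference. Restricting the fit to the 8 arrays left 1, 15, 21, 0 and 14, and to the 12 adult arrays 1334, 1231, 858, 64 and 941, with fewer samples for the spread. At an unadjusted p under 0.05 the 8 arrays gave 5448 genes on the average and 959 in both sexes. Median scaling left 613 on the average, 1335 in females, 985 in males and 78 in both sexes. Without a filter on dim probes, with 36759 genes tested, there were 2206 on the average, 1772 in males, 207 in both sexes and 2025 for the sex difference. The normexp correction left 1465 in males and 266 in both sexes, and quantile normalization 1716 and 240. The average had 764 calls with sex left out and 1758 with slide as a random block. With slide as a fixed term it had 3038, of which 1562 were shared with the main calls, and 42.3% of them were rises. Slide terms could be fitted only with sexes additive, so the other results have none. Leaving out 1 array gave 2089 to 3119 on the average, 1390 to 3647 in females, 782 to 3151 in males, 140 to 448 in both sexes and 1465 to 4049 for the sex difference. With the replicate block the counts were 3142, 3204, 3314, 419 and 3235, with 2735, 2738, 2746, 352 and 2657 genes shared.

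Of the named genes' values over the alternatives, 1774 of 1994 kept direction and call on the average, 1544 of 1788 in females, 937 of 1345 in males and 477 of 603 for the sex difference. The sign turned for Cxcr5 in females (0.01, adjusted p = 0.95) under normexp. Of 72 male calls, 50 were lost without male 2 at 24 h and 36 without male 2 at 0 h. Called changes of the named genes moved by over 1.5 times in 21 genes on the average, 27 in females and 13 in males under normexp, whose offset shrinks changes of dim probes, and in 28 genes on the average with slide as a fixed term. Where no cause is named, the cause was not tested. Probes near background limit the falls in the 24 h males, whose arrays were dimmer.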
